A study of Mus musculus with 19 samples.

Results

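The Notch genes followed here were the 4 receptors Notch1, Notch2, Notch3 and Notch4, the ligands Jag1, Jag2 and Dll4, and the target genes Hes1, Hey1 and Heyl. They were chosen by name, and binding was read in a window made of the annotated gene (GENCODE, mm9 build) with 20 kb on either side. All 10 genes were found in the annotation, among 22380 protein-coding genes and 37310 annotated genes, and their windows did not overlap each other. The windows held 96 of the 82869 peaks that 6 peak lists contained: 2 YAP peaks, both at 7 days of induction, and 94 TEAD peaks.

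The data were chromatin immunoprecipitation followed by sequencing (ChIP-seq) for YAP, the coactivator restrained by the Hippo pathway, and TEAD, the factor through which YAP contacts DNA, in livers of C57BL/6 mice. All mice carried the ROSA26-rtTA-IRES-EGFP allele and received doxycycline food. WT livers lacked the tetYAP transgene and had doxycycline for 7 days, and tetYAP livers, in which doxycycline switches on activated YAP S127A, had it for 3 days or for 7 days. According to the study's methods an Alb-CRE allele, which acts in hepatocytes, was crossed in to enable the rtTA, and the labels do not say whether WT mice carried it. Ages were not given in the sources used here. Each group had 3 replicates, except TEAD at 7 days with 4, and the authors pooled replicates ahead of peak calling. Each group therefore has 1 peak list, from 34260362 to 55032002 tags, and no difference between groups described below has a replicate check or a test. The tissue was whole liver, so a site bound in few cells and a site bound weakly in many cells cannot be told apart. The TEAD antibody, ARP38276, was stated in the study's methods to be raised against TEAD4 and to recognise also TEAD1 and TEAD3.

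Notch receptors are cut when a neighbouring cell presents a Jagged or Delta-like ligand, and the freed intracellular part enters the nucleus, joins the DNA-binding protein RBPJ and the Mastermind coactivators, and switches on genes such as the Hes and Hey repressors. In liver this pathway is known for directing bile duct formation, with Jag1 and Notch2 as the central ligand and receptor, and for the growth and zonation of liver vessels. YAP activity in hepatocytes has been linked to the same duct programme. The peaks below report binding, and no RNA was measured in these samples.

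TEAD factors recognise the letters GGAATG, which read CATTCC on the other strand. The sequences around the TEAD summits at 7 days are shown for the strongest sites that hold this motif. For Hes1 they are shown for the 3 sites with the highest pileup at 7 days. They are given on the plus strand of mm9 with the searched motifs in capitals, and the Notch1 site, which lies in an untranslated region, is cut to a short stretch.
Notch1, end of the gene, chr2:26314004-26314033: aggctccacccaCATTCCagcacactcaag
Notch2, intron near the start, chr3:97818030-97818130: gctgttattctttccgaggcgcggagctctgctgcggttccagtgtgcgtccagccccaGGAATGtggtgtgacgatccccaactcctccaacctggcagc
Notch3, past the gene end, chr17:32254335-32254435: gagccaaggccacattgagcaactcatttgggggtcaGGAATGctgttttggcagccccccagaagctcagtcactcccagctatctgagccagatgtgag
Jag1, intron, chr2:136933336-136933436: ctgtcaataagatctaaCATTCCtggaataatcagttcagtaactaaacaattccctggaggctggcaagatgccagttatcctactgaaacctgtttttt
Hes1, 4.88 kb upstream, chr16:30060496-30060596: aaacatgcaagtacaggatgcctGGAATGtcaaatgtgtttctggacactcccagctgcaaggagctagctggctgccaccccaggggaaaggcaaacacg
Hes1, 5.67 kb upstream, chr16:30059702-30059802: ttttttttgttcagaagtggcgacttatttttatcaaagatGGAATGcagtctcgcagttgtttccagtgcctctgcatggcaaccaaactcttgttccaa
Hes1, 12.0 kb upstream, chr16:30053396-30053496: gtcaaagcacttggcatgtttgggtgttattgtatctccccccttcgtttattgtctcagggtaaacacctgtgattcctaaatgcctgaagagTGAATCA
The TEAD motif lay 5 bp from the 7-day summit at Notch1, 11 bp at Notch2 and at Notch3, 31 bp at Jag1, and 25 bp and 7 bp at the Hes1 sites 4.88 kb and 5.67 kb upstream. The Hes1 site 12.0 kb upstream had no GGAATG within 100 bp of its summit. The pattern searched for the AP-1 factors was TGANTCA, in which N is any letter. At this Hes1 site it was met by TGAATCA, 47 bp from the summit. TGANTCA occurred in 8.67% of the TEAD list at 7 days and in 6.04% of shifted regions, and AP-1 binding was not tested. Heyl is also shown because GGAATG is directly followed there by TGACTCA, an AP-1 motif.
Heyl, 16.6 kb upstream, chr4:122894124-122894224: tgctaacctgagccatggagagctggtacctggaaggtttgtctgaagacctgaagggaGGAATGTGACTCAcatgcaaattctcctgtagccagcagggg

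TEAD peaks were most numerous at the receptors Notch1 and Notch2 and at the target gene Hes1. TEAD peaks were found at 4 of the 10 genes in WT livers, at 7 after 3 days and at 8 after 7 days, and YAP peaks at 0, 0 and 2. Among all protein-coding genes, 25.4% had a TEAD peak in such a window in WT livers, 65.2% at 3 days and 66.5% at 7 days, so the shares of Notch genes with any TEAD peak were near those of genes in general. The YAP background was 0.139% of genes in WT livers, 0.192% at 3 days and 6.33% at 7 days. Jag2 and Hey1 had no peak in any of the 6 lists. Hey1 encodes a repressor induced by Notch, and Jag2 a ligand of the Jagged class.

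The density of TEAD peaks in the windows, unlike the number of genes bound, was above that of genes in general. The 10 windows, 0.756 Mb in all, held 11 TEAD peaks in WT livers, 42 at 3 days and 41 at 7 days. This was 14.6, 55.6 and 54.3 peaks per Mb of window, against 3.32, 21.6 and 22.7 per Mb over the windows of all protein-coding genes, whose median window of 55.4 kb compares with 62.6 kb for the Notch genes. Notch2 alone held 7, 18 and 11 of them in the largest window, of 177 kb, and without Notch2 the densities were 6.91, 41.5 and 51.8 per Mb. Peaks nearer to the start of a neighbouring gene are counted on both sides of this comparison. At 7 days the nearest start was that of the Notch gene itself for 23 of the 41 peaks. The median Notch gene had 0 TEAD peaks in WT livers, as did the median of all protein-coding genes, and 3 at 3 days and 3.5 at 7 days, against 1 for all protein-coding genes at either induced time. The higher counts after induction came with far longer lists, 36446 peaks at 3 days and 38984 at 7 days against 5695 in WT livers. The 3-day and 7-day lists were also limited to as many peaks as the WT list holds, taking those with the highest −log10 p. The windows then held 5 and 9 peaks, fewer than the 11 in WT livers. The WT list also had a fragment length of 400 bp in the caller, against 207 bp and 206 bp at 3 and 7 days, and its part in the counts was not tested.

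**Figure D1:**
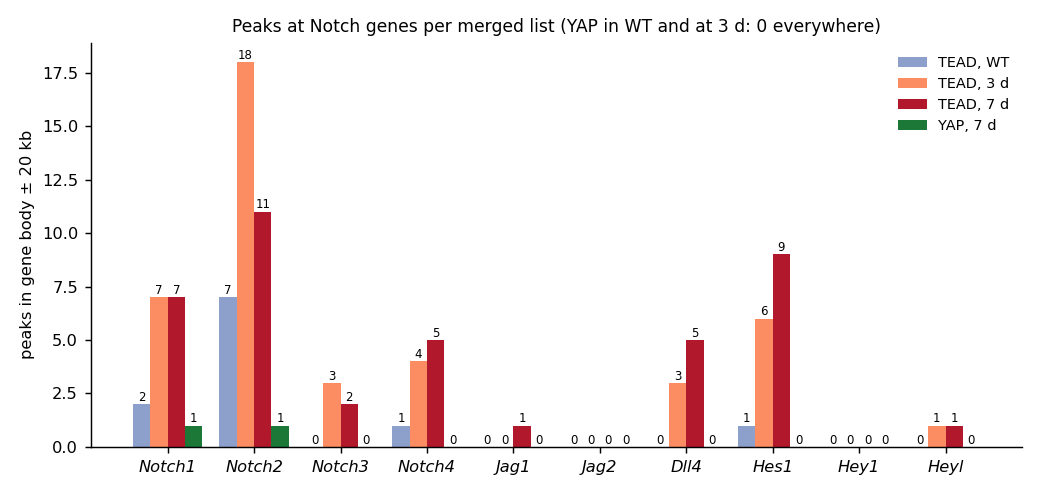
Number of peaks (vertical axis) in the window of each Notch gene (horizontal axis), with 1 bar for each merged list: TEAD in WT livers, at 3 days and at 7 days, and YAP at 7 days. Notch2, Hes1 and Notch1 hold most TEAD peaks, Jag2 and Hey1 hold none, and the only YAP peaks are 1 at Notch1 and 1 at Notch2.

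Notch1, on the minus strand of chromosome 2 (26313423 to 26372183), carried the strongest site of all 10 genes. Notch1 is a widely expressed receptor, and in liver it is known from endothelial cells. The site lay in its 3′ untranslated region, 45.3 kb downstream of the reference transcription start, and 13.3 kb from the nearest start, that of Sec16a. The TEAD pileup, which counts the fragments covering the summit, was 68 in WT livers, 219 at 3 days and 234 at 7 days. These values ranked 550 of 5695 (the top 9.66%), 150 of 36446 (the top 0.412%) and 151 of 38984 (the top 0.387%) in their lists. Pileups and fold enrichments called with different fragment lengths are not on the same scale, and a rank or its share of a list depends on how many peaks the list holds. WT values are therefore given beside the others throughout, and no change from WT is read from them. The fold enrichment over the control at this site was 8.73 in WT livers, 35.68 at 3 days and 53.4 at 7 days.

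The end of Notch1 was also 1 of the 2 places in these windows where YAP was called. The YAP peak at 7 days (chr2:26313906-26314155) had a pileup of 28. It was 6.11-fold over the control, at a −log10 p of 13.7. It ranked 742 of 1478, near the middle of its list, and lay inside the TEAD peaks of all 3 lists. At 7 days the TEAD signal there split into a main peak and a neighbour in the last part of the coding sequence, with a pileup of 105 and rank 2573, whereas at 3 days 1 peak (chr2:26313608-26315309) spanned both summits. Near the Notch1 start TEAD was weak. The summit closest to the reference start was at −143 bp at 3 days, with a pileup of 37 (rank 16402), and at −361 bp at 7 days, with a pileup of 23 (rank 32442, the top 83.2%), and no WT peak was called there. The single site of the 49 in all windows that had only a WT peak was an intron of Notch1, 10.1 kb from the reference start, with a pileup of 28 and rank 5443 of the WT list.

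Notch2, on the plus strand of chromosome 3 (97817461 to 97954290), had TEAD sites along much of its length and was bound near its start. Notch2 is the main receptor for bile duct formation, and mutations in it or in Jag1 cause Alagille syndrome in people. The strongest site was in an intron 0.619 kb downstream of the start. Its TEAD pileup was 68 in WT livers, 126 at 3 days and 140 at 7 days, at ranks 550, 1133 and 1173, that is the top 9.66%, 3.11% and 3.01% of the lists. The WT pileup and rank are the same numbers as at the Notch1 site. The second YAP peak (chr3:97817896-97818280) lay on this site, with a pileup of 25, 5.46-fold over the control, at a −log10 p of 11.33 and rank 1041 of 1478, in the weaker part of its list.

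Of the Notch2 sites, 7 had a TEAD peak in all 3 lists, 3 at 3 and 7 days only, and 6 at 3 days only. Notch2 and its introns thus held 7 of the 10 sites in the Notch windows that were bound in all 3 lists. The others of these 10 were the Notch1 end, a site upstream of Notch4 and one upstream of Hes1. Pileups at the Notch2 site 12.7 kb into the gene were 39 in WT livers, 81 at 3 days and 92 at 7 days. At 85.4 kb they were 35, 43 and 74. The 6 sites called at 3 days only were weak, with pileups of 23 to 31. A further peak, just upstream of the start, had a pileup of 37 at 3 days (−262 bp) and 29 at 7 days (−216 bp).

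**Figure D2:**
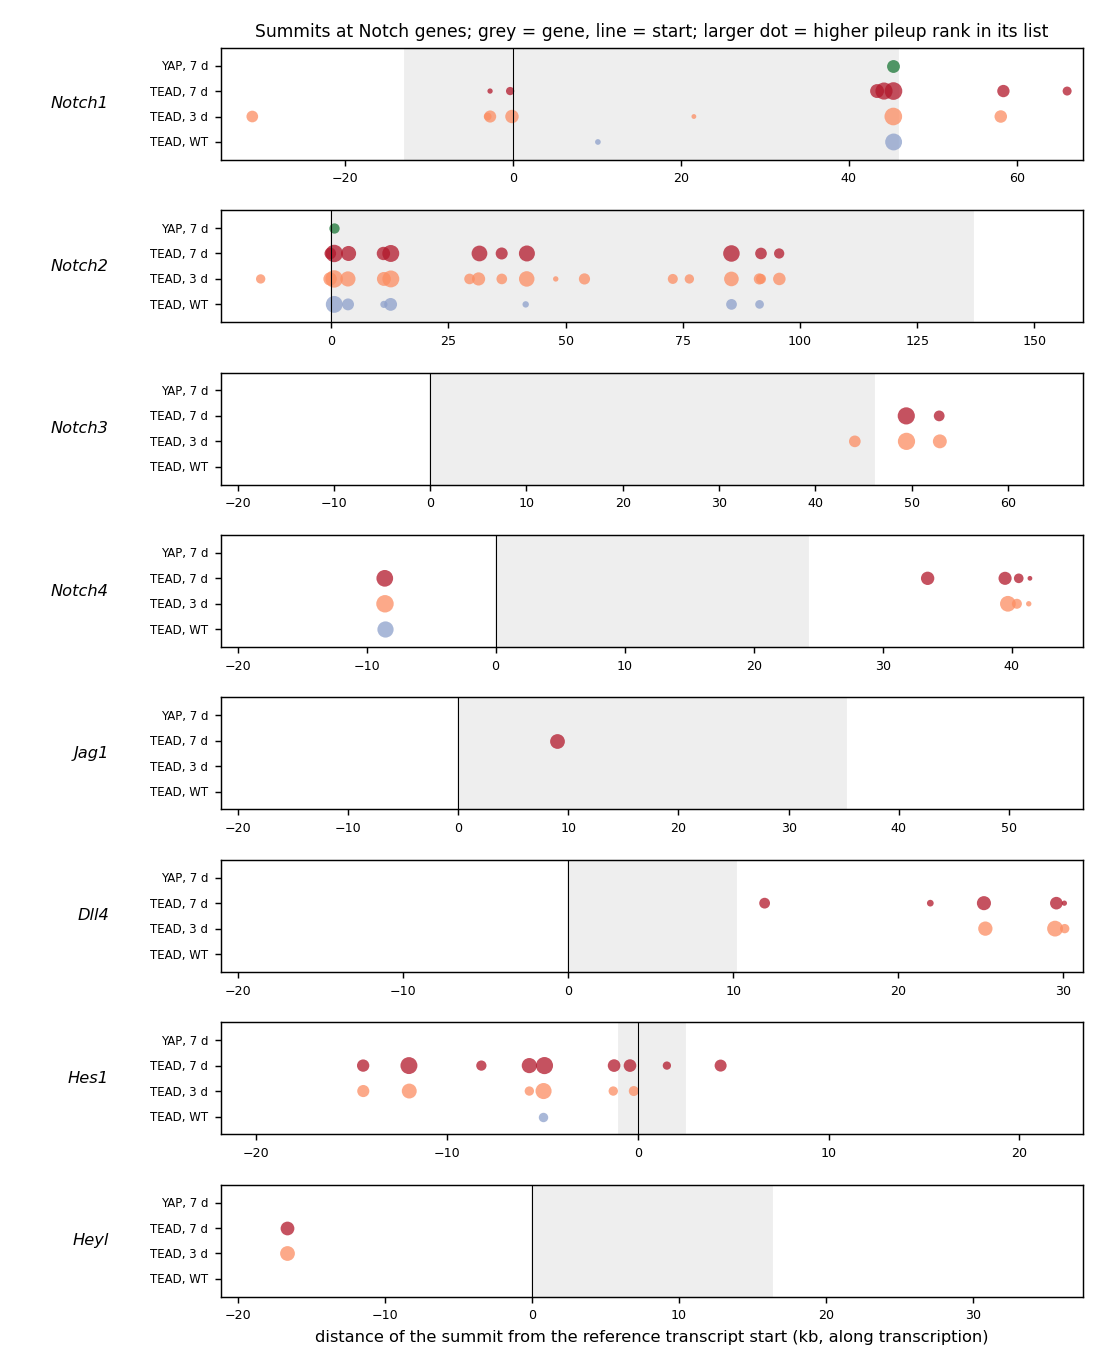
Positions of peak summits (dots) along the 8 Notch genes with any peak, as distance in kb from the reference transcript start in the direction of transcription (horizontal axis), with 1 row per list and grey for the gene. Larger dots stand for a higher pileup rank within the list. Notch2 is bound throughout the first part of the gene, Hes1 mostly upstream, and the strong Notch1 site lies at the end of the gene under the YAP peak.

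Notch3 and Notch4 had fewer sites, and none in the region from 2000 bp upstream to 1000 bp downstream of their own starts. Notch3 is best known from vessel mural cells. Its strongest site was 3.4 kb past the end of the gene and 49.4 kb from its start, within an intron of Gm17276, an overlapping long non-coding RNA gene on the opposite strand. The pileup there was 100 at 3 days (rank 2030, the top 5.57%) and 108 at 7 days (rank 2398, the top 6.15%), and no WT peak was called in the Notch3 window.

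Notch4 is a receptor of endothelial cells in a gene-dense part of chromosome 17, and 6 other protein-coding genes reach into its window. A site 8.59 kb upstream had pileups of 57 in WT livers (rank 961, the top 16.9%), 129 at 3 days (rank 1053, the top 2.89%) and 80 at 7 days (rank 4527, the top 11.6%). Its nearest start, 8026 bp away, was that of Btnl7. It was the strongest Notch4 site in each of the lists, and no GGAATG was found within 100 bp of its 7-day summit. The other 4 peaks of the window at 7 days lay within 200 bp of the starts of Ager (108 bp), Rnf5 (65 bp) and Agpat1 (30 and 179 bp), not of Notch4.

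The ligands held few peaks. Jag1, the ligand of bile duct formation, had 1, called at 7 days only, in an intron 8.99 kb downstream of its start (chr2:136933198-136933523). Its pileup was 44, its fold enrichment 10.37 and its rank 12604 of 38984, the top 32.3%. Dll4 is a ligand of endothelial cells. Its window held 3 TEAD peaks at 3 days and 5 at 7 days, but only 1 of these, 11.9 kb downstream of the start with a pileup of 27 at 7 days, had Dll4 as the gene with the nearest start. All others were closer to the start of Chac1, a glutathione-degrading enzyme that has also been described as an inhibitor of Notch maturation. The strongest Dll4-window peak was 4050 bp past the Chac1 start at 3 days, with a pileup of 54 (rank 7770), and 256 bp upstream of that start at 7 days, with a pileup of 39 (rank 15186).

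Hes1, the best known target gene of the pathway which encodes a repressor, had the densest TEAD binding after induction. At 7 days it had 20.7 peaks per 100 kb of window, against 9.96 at Dll4, 7.79 at Notch4, 7.09 at Notch1 and 6.21 at Notch2. Most 7-day peaks in the Dll4, Notch4 and Notch1 windows had another gene's start as the nearest. At Notch1 that gene was Sec16a. Summits lay 186 bp and 1948 bp from the Sec16a start, and the other summits nearest to it lay within Notch1. At 3 days Hes1 had 13.8 and Notch2 10.2, and in WT livers Notch2 was denser, with 3.95 against 2.3 at Hes1. No other protein-coding gene lies in the Hes1 window. Hes1 had 1 TEAD peak in WT livers, 6 at 3 days and 9 at 7 days. All 6 of the 3-day sites were called again at 7 days, and 3 sites were called at 7 days only. The site 4.88 kb upstream was the one called in all 3 lists, with pileups of 33 in WT livers, 58 at 3 days and 106 at 7 days. Its ranks were 4347 of 5695 in WT livers, 6694 of 36446 at 3 days (the top 18.4%) and 2519 of 38984 at 7 days (the top 6.46%). The site 12.0 kb upstream had pileups of 45 and 92 at 3 and 7 days, and the site 5.67 kb upstream had 28 and 48. At the start itself a weak peak was called at both times, with a pileup of 29 at −201 bp at 3 days and 32 at −400 bp at 7 days, and another lay at −1277 bp (28) and −1233 bp (32). YAP was not called at Hes1 in any list.

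Heyl, a relative of Hey1 known from mural cells, had 1 TEAD site, 16.6 kb upstream of its start and 15427 bp from the start of Nt5c1a. Its pileup was 44 at 3 days (rank 11693, the top 32.1%) and 37 at 7 days (rank 16428, the top 42.1%).

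**Figure D3:**
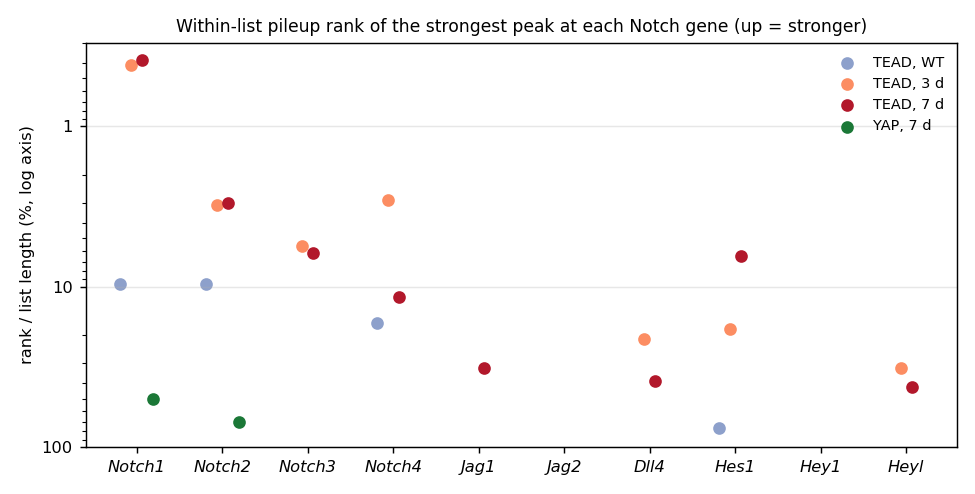
Pileup rank of the strongest peak in each Notch gene's window, as a percentage of its list's length (vertical log axis, higher on the plot means stronger), for TEAD in WT livers, at 3 days and at 7 days and for YAP at 7 days. Notch1 stands in the top 0.412% and 0.387% of the TEAD lists after induction, Hes1 stands in the top 18.4% at 3 days and 6.46% at 7 days, and both YAP peaks lie in the lower part of the plot. The WT list is much shorter, so its shares cannot be read against the others.

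To compare 3 and 7 days, whose fragment lengths were nearly equal, pileups were divided by the tags of each merged library. This measure was chosen after the values were seen. Over all 27647 TEAD peaks at 3 days that overlapped a 7-day peak, the ratio of 7 days to 3 days had a median of 1.34, a middle 50% from 1.11 to 1.64 and a central 90% from 0.85 to 2.55. The 29 sites at Notch genes had a median of 1.36, close to that of all pairs. Intervals given with single ratios are 95% exact intervals that cover counting error only.

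The single sites named here include the highest and the lowest ratios of the 29. In any set of 29 sites some can fall near the ends of the range of all pairs. Of the 6 Hes1 sites with a peak at both times, 3 stood high in this range. The ratio was 2.92 (2.02 to 4.27) at the site 12.0 kb upstream, 2.61 (1.88 to 3.66) at 4.88 kb and 2.45 (1.51 to 4.05) at 5.67 kb, at percentiles 96.8, 95.3 and 94.3 of all pairs. At the other Hes1 sites it was 1.34 (0.795 to 2.26) at 14.4 kb upstream, 1.63 (0.952 to 2.81) at 1.23 kb and 1.58 (0.924 to 2.7) at 0.4 kb, at percentiles 49.9, 74.1 and 70.7. A pair of Notch2 intron sites was similar, with 2.46 (1.67 to 3.67) at 85.4 kb and 2.22 (1.44 to 3.48) at 31.6 kb. The strongest receptor sites lay nearer the middle. The ratio was 1.53 (1.26 to 1.84) at the end of Notch1, 1.59 (1.24 to 2.04) at the Notch2 site 0.619 kb into the gene and 1.54 (1.16 to 2.05) past Notch3. At the low end, the site upstream of Notch4 had 0.886 (0.662 to 1.18), at percentile 6.73, and the site 29.6 kb downstream of the Dll4 start had 0.847 (0.529 to 1.33), at percentile 4.82. A weak site in a Notch1 intron, 2.75 kb upstream of the reference start, had the lowest ratio, 0.822 (0.442 to 1.49), at percentile 3.77. The intervals at Notch4 and Dll4 lie below the median of all pairs, and that at Notch1 includes it. All 3 include 1.

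**Figure D4:**
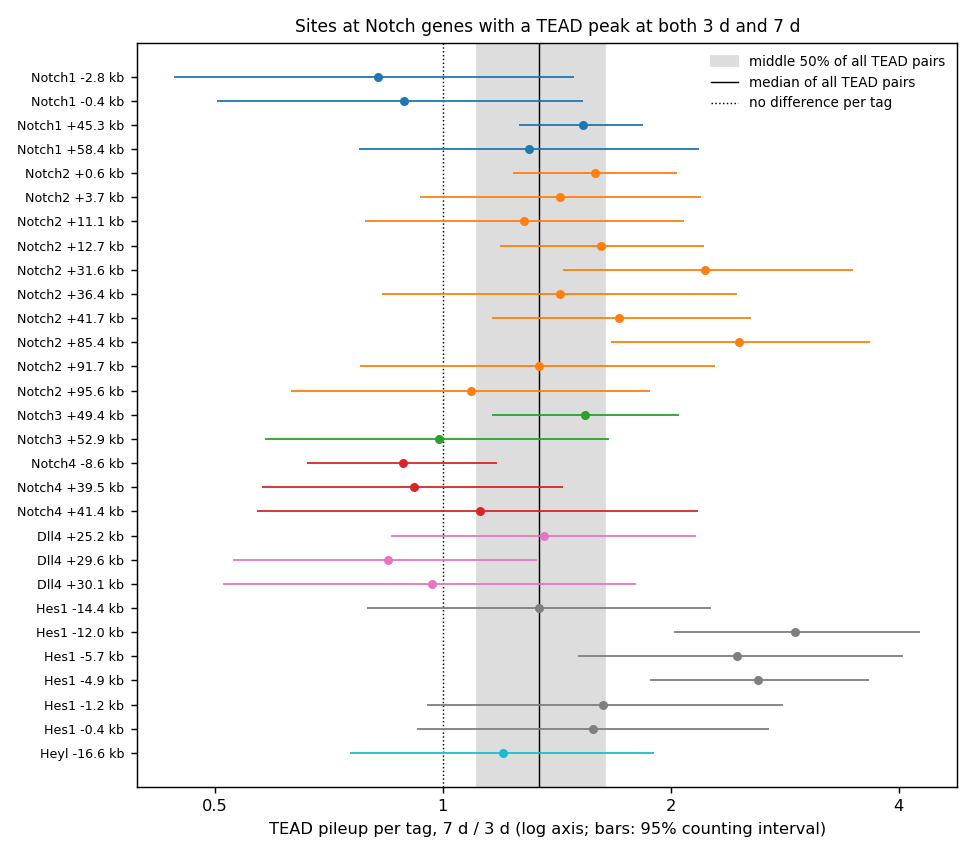
TEAD pileup per tag at 7 days divided by that at 3 days (horizontal log axis) for the 29 sites at Notch genes with a peak in both lists, named by distance from the reference start, with 95% counting intervals as bars. The grey band is the middle 50% of all 27647 pairs (1.11 to 1.64) and the solid line their median of 1.34. Most sites lie on or near the band, and 3 Hes1 sites and 2 Notch2 sites lie above 2.

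Sharing between the 3-day and 7-day lists at the Notch genes was close to that of the lists as a whole. The shares of induced peaks at a WT peak were higher than in the whole lists, whose shares lay just inside the intervals. Of the 41 TEAD peaks at 7 days, 33 (80.5%, 95% Wilson interval 66.0 to 89.8) overlapped a 3-day peak, against 71.2% of the whole list. Of the 42 peaks at 3 days, 32 (76.2%, 61.5 to 86.5) overlapped a 7-day peak, against 75.9%. A WT peak was present at 10 of the 41 (24.4%, 13.8 to 39.3), against 14.1%, and at 11 of the 42 (26.2%, 15.3 to 41.1), against 15.5%. Most sites bound in all 3 lists lay at Notch2, and the intervals treat peaks of the same gene as independent. Of the 11 WT peaks, 10 (90.9%, 62.3 to 98.4) overlapped a 7-day peak, against 95.4%. YAP was called at 2 of the 41 (4.88%, 1.35 to 16.1), against 3.58%. Both YAP peaks overlapped TEAD peaks of WT livers, as did 54.8% of the YAP list. The 49 distinct TEAD sites were bound in all 3 lists in 10 cases, at 3 and 7 days in 19, at 3 days only in 10, at 7 days only in 9 and in WT livers only in 1.

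Binding at the Notch genes was spread over introns and intergenic sequence. Of the 41 TEAD peaks at 7 days, 19 had their summit in an intron, 18 between genes, 3 in a coding exon and 1 in the Notch1 3′ untranslated region. For 23 the nearest start was that of the Notch gene itself. These shares were not computed for the whole list, so no trait particular to the Notch genes is read from them. Promoter peaks, from 2000 bp upstream to 1000 bp downstream of a Notch gene's own start, were found at Notch1, Notch2 and Hes1 at 3 and at 7 days, and at Notch2 alone in WT livers, where the peak called for YAP at 7 days also lay. Over all protein-coding genes, 37.9% had such a TEAD peak at 3 days, 36.5% at 7 days and 8.26% in WT livers, and 0.925% a YAP peak at 7 days, so 3 of 10 Notch genes is near the background. A summit within 1 kb of any protein-coding start was found for 10 of the 41 peaks at 7 days (24.4%, 13.8 to 39.3), against 21.4% of the whole list.

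The letters under the summits were counted for each list. The intervals of the TEAD lists at the Notch genes overlap, and 7 of the 11 WT peaks lay at Notch2. GGAATG was found on either strand within the 200 bp around the summit in 8 of 11 peaks in WT livers (72.7%, 43.4 to 90.3), 14 of 42 at 3 days (33.3%, 21.0 to 48.4) and 18 of 41 at 7 days (43.9%, 29.9 to 59.0). Over the whole lists these shares were 48.5%, 30.4% and 35.2%, and in regions of the same length shifted by 2000 bp they were 10.7%, 10.4% and 10.6%. Both YAP peaks held it, as did 58.9% of the YAP list at 7 days. TGANTCA was in 3 of the 41 peaks at 7 days (7.32%, list 8.67%, shifted regions 6.04%). TGGGAA, the core letters bound by RBPJ, was in 10 of the 41 (24.4%, 13.8 to 39.3), against 20.4% of the list and 18.7% of shifted regions, both within the interval. At 3 days it was in 13 of 42 (31.0%, 19.1 to 46.0), against 20.1% of the list and 18.6% of shifted regions. There the list share lay within the interval and the shifted share just below it. In WT livers it was in 2 of 11 (18.2%, 5.14 to 47.7), against 21.0% and 18.6%. RBPJ binding was not tested.

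Of 37 other genes of the pathway, 11 had a TEAD peak in WT livers, 32 at 3 days and 35 at 7 days, and 1 had a YAP peak at 7 days. These TEAD counts were 29.7%, 86.5% and 94.6% of the genes, against 25.4%, 65.2% and 66.5% of all protein-coding genes, and the background for YAP was 6.33%. The classes below, of 3 to 11 genes, are read against the same shares. The gene with a YAP peak was Maml3, a Mastermind coactivator, whose YAP peak ranked 520 of 1478, above those at Notch1 and Notch2. The Maml3 window spans 457 kb, against a median of 55.4 kb over all protein-coding genes. It was the longest window of the 37 genes, and the shortest was 41.3 kb, at Psenen. The shares above were not matched for window length. For these other pathway genes peaks were only counted, and their distance to starts of neighbouring genes was not examined. Of the 9 genes for cleavage of the receptor, 4, 8 and 9 had a TEAD peak in WT livers, at 3 and at 7 days. Psen2, a catalytic subunit of γ-secretase, had 3, 9 and 11 peaks, the strongest at rank 1133 at 3 days and 1151 at 7 days. Adam10, the protease of the first ligand-induced cut, had 1 peak in each list, at rank 3570 in WT livers and 1316 and 1263 after induction. All 6 genes of the transcription complex had a peak at 7 days, with 4 peaks at Rbpj. Among the 11 genes of trafficking and turnover, 2, 10 and 11 had a peak. Of the 4 glycosylation genes, 0, 3 and 3 had a peak, and Lfng, which modifies Notch receptors, had none in any list. The other ligands (3 genes) counted 1, 2 and 3, and the other targets and feedback genes (4 genes) 1, 4 and 3, since Hes5 had a peak at 3 days only.

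Binding at marker genes of liver cell types was read the same way. Of all 25 markers, 5 had a TEAD peak in WT livers, 14 at 3 days and 14 at 7 days. The share was 56.0% at either induced time, and the shares of all protein-coding genes were 25.4% in WT livers, 65.2% at 3 days and 66.5% at 7 days. All 5 hepatocyte markers (Alb, Ttr, Apoa1, Hnf4a and Cps1) had a TEAD peak at 3 and 7 days and 3 of them in WT livers, and Alb also had YAP peaks in all 3 YAP lists. Of 5 cholangiocyte markers none had a TEAD peak in WT livers and 2 had one at 3 days (Epcam and Spp1) and at 7 days (Spp1 and Sox9), with none at Krt19 or Krt7 in any list. Of 5 endothelial markers 1, 2 and 2 had a peak, at Stab2 and Lyve1, and none was called at Pecam1, Cdh5 or Kdr. Stellate and mural markers counted 0, 3 and 3 of 5 and Kupffer cell markers 1, 2 and 2 of 5. Acta2, a mural marker, was the only marker besides Alb with a YAP peak, at 7 days. The part of each cell type in the peaks at Notch genes was not tested.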

How the data were processed

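According to the study's methods, low-quality bases were masked and reads were mapped to mm9 with BWA (version 0.6.2 in the submitters' processing notes). The authors then pooled each group's replicates and dropped duplicate reads. The headers of the peak files name MACS 2.0.9 as the caller, a cutoff of 1e-05 on p, 51 bp tags and 1 control of 167176362 tags shared by all lists. The deposited pileup is a signal, the count of extended fragments at the summit, unscaled because the larger control was scaled down. The deposited fold enrichment is the ratio of pileup to local background, and the deposited −log10 p and −log10 q values come from the same caller. The values are those of the authors.

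Groups were taken from the sample labels. Here peaks were assigned to windows by an overlap of at least 1 bp and ranked by pileup within each list, with ties given the lowest rank, in Python 3.11.15 with pandas 2.3.3 and scipy 1.17.1. The named genes were the 10 members, with the strongest peak, every YAP peak and the peak nearest to the start of each. Motifs were searched on both strands. All but 132 of the 82869 peaks lay on chromosomes of the reference used here, and none ended beyond a chromosome of it. The members and lists were chosen with earlier results of these data known. Wilson and exact intervals cover counting error only. The scripts were tested on simulated peaks. Alternatives changed the flank, the peak thresholds, the overlap rule, the list length, the motif window and the ranking measure.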

Additional observations from a re-analysis of the deposited data

How the results depend on the processing

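Under the alternatives, 113 recomputed counts and shares stayed within 1.5 times the main count or within its interval, and 21 moved further. The 113 include YAP counts of 0 in WT livers and at 3 days. They also include shares of the YAP peaks at 7 days, read against an interval of 34.2 to 100. Both had little room to move, so the tally says little about the TEAD results. Without a flank, TEAD peaks were found at 2 genes in WT livers, 4 at 3 days and 4 at 7 days, with 23 and 20 peaks at 3 and 7 days. With 5 kb, 4 genes had a peak at 3 days and the windows held 25 peaks at 7 days. With 50 kb, they held 4 YAP peaks at 7 days and 67 and 73 TEAD peaks at 3 and 7 days, and Jag2 and Hey1 then had TEAD peaks, 4 and 1 at 7 days. A fold enrichment of at least 5 left 3 peaks in WT livers and 22 at 3 days. Limited to the length of the WT list, the lists held 5 peaks at 4 genes at 3 days and 9 peaks at 5 genes at 7 days. With summits at most 100 bp apart, 58.5% of 7-day peaks had a 3-day peak, 57.1% of 3-day peaks a 7-day peak and 54.5% of WT peaks a 7-day peak. With −log10 p of at least 10 in both lists, 100% of the 8 WT peaks were found at 3 and at 7 days. Ranked by fold enrichment, the strongest Dll4 peak fell to the top 46.8% at 3 days and 60.5% at 7 days, and 36 of 38 such ranks stayed within 1.5 times. The cause of the Dll4 shift was not tested, and the other alternatives count fewer or more peaks by construction.

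No paired analysis was possible because each list pools its group's replicates, which also kept the alternative of leaving out a replicate from being run. The YAP lists hold 110 to 1478 peaks from 34260362 to 54661175 tags, and a missing YAP peak at a Notch gene says only that none passed the caller's cutoff.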
